A study of Mus musculus with 4 samples.

Results

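The imprinted Igf2-H19 and Dlk1-Meg3 loci were examined in Micro-C contact lists of mouse E14 embryonic stem cells (ESCs) and of motor neurons (MNs) made from them. Micro-C cuts crosslinked chromatin with micrococcal nuclease, joins ends that lie close together in the nucleus and sequences the joined fragments, so that each contact counts 1 joined pair. The members were all pairs of 8 kb bins with both bins inside 1 of 2 windows of about 700 kb on GRCm38 (mm10). The Igf2-H19 window was chr7:142304001-143000000 and the Dlk1-Meg3 window was chr12:109200001-109896000, each of 87 bins and 3828 possible pairs. In the RefSeq annotation of GRCm38.p6 H19 is at chr7:142575530-142578146 and Igf2 at chr7:142650768-142666816, both on the minus strand, and Dlk1 is at chr12:109452485-109463336 and Meg3 at chr12:109540996-109571729, both on the plus strand. Of the 3828 pairs at Igf2-H19, the ESC list held 2734 and the MN list 2474. At Dlk1-Meg3 they held 2890 and 2564, of 23095428 and 21005697 pairs over the genome.

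The 4 groups were wild-type (WT) ESCs, PATZ1 KO ESCs, WT MNs and PATZ1 KO MNs, with 1 library in each. All were of the E14 mouse ESC line, with ESCs kept in LIF and 2i (inhibitors of MEK1/2 and GSK3). The MNs were grown as embryoid bodies patterned with retinoic acid and smoothened agonist, and the PATZ1 KO cells carry CRISPR/Cas9 mutations of Patz1, which encodes a zinc finger protein. Which knockout clone was used for Micro-C is not given in the sources used here. With 1 library per group there was no replicate, so every interval below is a 95% exact (Clopper-Pearson) interval that covers counting error only, and no difference between groups was tested. The columns of the lists are numbered rather than named, and each direction rests on reading the first as WT and the second as PATZ1 KO, as in the name of the comparison. Values given in fours are for WT ESCs, PATZ1 KO ESCs, WT MNs and PATZ1 KO MNs, in this library order.

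Genomic imprinting leaves a gene active on the chromosome from 1 parent and silent on the other. At Igf2-H19 the paternal copy makes Igf2, a growth factor of the insulin family, and the maternal copy makes H19, a long noncoding RNA. The imprinting control region (ICR) just upstream of H19 binds the insulator protein CTCF on the unmethylated maternal copy, which keeps enhancers on the far side of H19 from reaching Igf2. At Dlk1-Meg3 the paternal copy makes Dlk1, a transmembrane relative of Notch ligands, and Rtl1, while the maternal copy makes the noncoding RNAs Meg3, Rian and Mirg under an intergenic control region (IG-DMR) between Dlk1 and Meg3. The contacts below add both parental copies together and cannot tell them apart.

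The sequences that set Igf2-H19 apart as a known locus are the CTCF sites of its ICR, shown here for that reason. They were located on the GRCm38.p6 RefSeq sequence by a search of both strands for the core motif known from these sites, the letters in capitals below with any base at the 3 places where the runs vary. The Igf2-H19 window held 4 matches, all on the minus strand and all in the 8 kb bin that also holds the H19 start and the ICR. The Dlk1-Meg3 window held 0 matches in its 87 bins, and of all 299496 autosomal bins 467 held at least 1, or 0.156%. Because the pattern is that of the H19 sites, its matches there and its absence elsewhere show only where the letters lie, and a bin without a match may still bind CTCF. Each run below is 60 bases, 5′ to 3′ on the minus strand, with the matching letters in capitals.
Match at chr7:142580309-142580322: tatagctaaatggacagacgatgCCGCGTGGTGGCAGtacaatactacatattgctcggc
Match at chr7:142580764-142580777: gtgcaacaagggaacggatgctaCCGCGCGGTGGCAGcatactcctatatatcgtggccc
Match at chr7:142581790-142581803: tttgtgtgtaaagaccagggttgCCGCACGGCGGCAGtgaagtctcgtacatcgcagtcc
Match at chr7:142582034-142582047: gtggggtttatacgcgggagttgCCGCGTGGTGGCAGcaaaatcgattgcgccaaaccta

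The lists held 170946673 contacts for WT ESCs, 160496081 for PATZ1 KO ESCs, 110991835 for WT MNs and 118032533 for PATZ1 KO MNs. The knockout is a mutation that these contacts do not show, so the targeted gene gives no check of the column order. For description, contacts within 200 kb of the bin that holds the Patz1 start numbered 522, 362, 361 and 208 in library order, a log2 O/E ratio of PATZ1 KO over WT of -0.40 (-0.60 to -0.21) in ESCs and -0.71 (-0.96 to -0.46) in MNs, while the rest of Patz1, in 2 further bins, gave 0.24 and 0.12 in ESCs and -0.30 and -0.33 in MNs. The libraries also differed in how contact followed base composition. Over 3337 autosomal windows of 87 bins, log2 PATZ1 KO over WT correlated with GC content at Pearson's r = 0.803 in ESCs and r = -0.945 in MNs, and MN over ESC at r = 0.880 in WT and r = -0.635 in PATZ1 KO cells. These windows share their libraries and their neighbours' base composition, and r is given as a description. The Igf2-H19 window has a GC content of 47.5% and the Dlk1-Meg3 window of 44.9%, both above the median window at 41.7%. Contacts were therefore set against 2 expected values. The first was the mean of all pairs of the same distance on the chromosome (observed over expected, O/E). The second, added after the data were seen, was that mean times an autosomal factor for GC content (GC-matched). The factor was the autosomal O/E of pairs in the same distance class and the same classes of GC content of both bins. The part of GC content in each difference was not tested beyond the 2 values given.

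**Figure D1:**
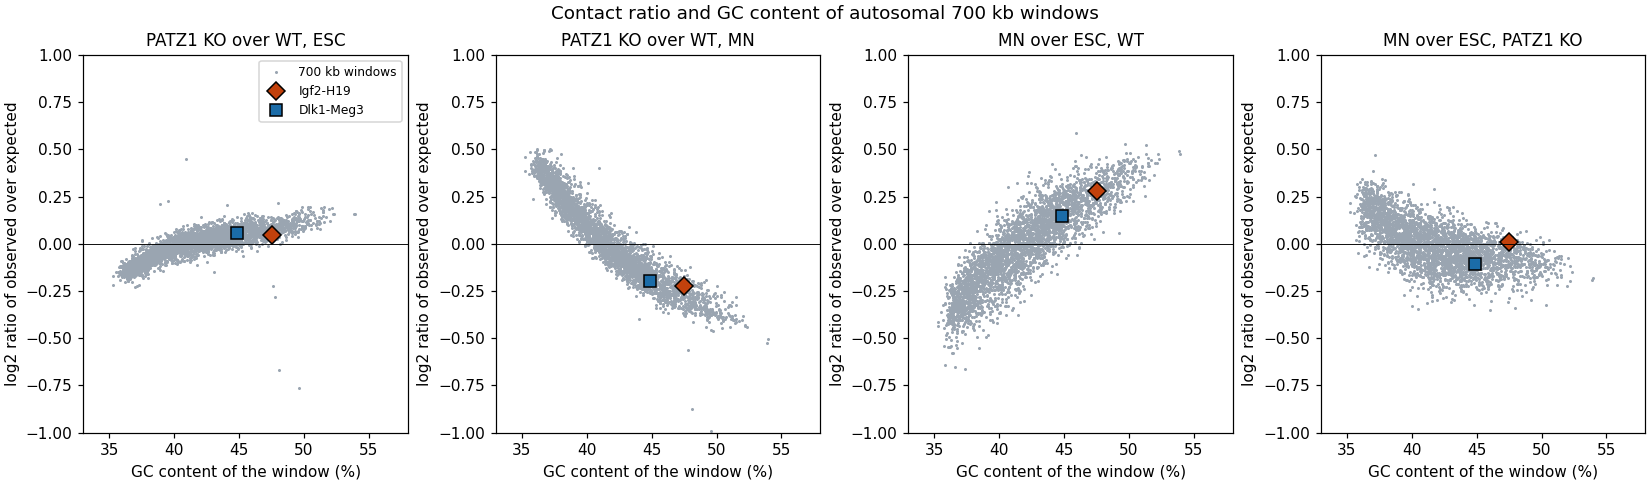
Log2 ratio of O/E contact (y axis) against GC content in percent (x axis) of 3337 autosomal windows (grey points) for the 4 comparisons, with the Igf2-H19 (diamond) and Dlk1-Meg3 (square) windows marked. In MNs the PATZ1 KO over WT ratio falls with GC content (r = -0.945), and the imprinted windows stand at -0.22 and -0.20.

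Summed over the whole window, contacts at Igf2-H19 numbered 35450, 34578, 27824 and 23696 in library order. The O/E was 0.981, 1.01, 1.19 and 1.02 in that order, so WT MNs stood above the other 3 libraries. The genotype ratio, the log2 ratio of O/E in PATZ1 KO against WT cells, was 0.048 (0.027 to 0.070) for ESCs and -0.22 (-0.25 to -0.20) for MNs, at percentiles 71.2 and 16.1 of the 3337 windows. GC-matched, the same ratios were -0.031 (-0.052 to -0.0095) and 0.031 (0.0062 to 0.056), so both directions turned. With the expected taken from 10 Mb either side of the window they were -0.00063 and -0.035. The window total thus gave no difference between genotypes that held its sign under all of these expected values.

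At Dlk1-Meg3 the window held 38388, 36534, 26523 and 24868 contacts in library order, with O/E values of 0.991, 1.03, 1.10 and 0.957. The genotype ratio was 0.059 (0.038 to 0.079) for ESCs and -0.20 (-0.22 to -0.17) for MNs, at percentiles 76.8 and 20. GC-matched, it came to 0.016 (-0.0052 to 0.036) for ESCs and -0.046 (-0.071 to -0.021) for MNs, so the direction stayed and the size dropped. With the expected taken from 10 Mb either side of the window it came to -0.024 and -0.0027, so the ESC direction turned and the MN ratio was close to 0. The MN over ESC ratio also moved with GC matching at both windows. In WT it was 0.28 at Igf2-H19 and 0.15 at Dlk1-Meg3 and fell to 0.044 and 0.00031 GC-matched, while in PATZ1 KO cells it was 0.0098 and -0.11 and came to 0.11 and -0.062.

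**Figure D2:**
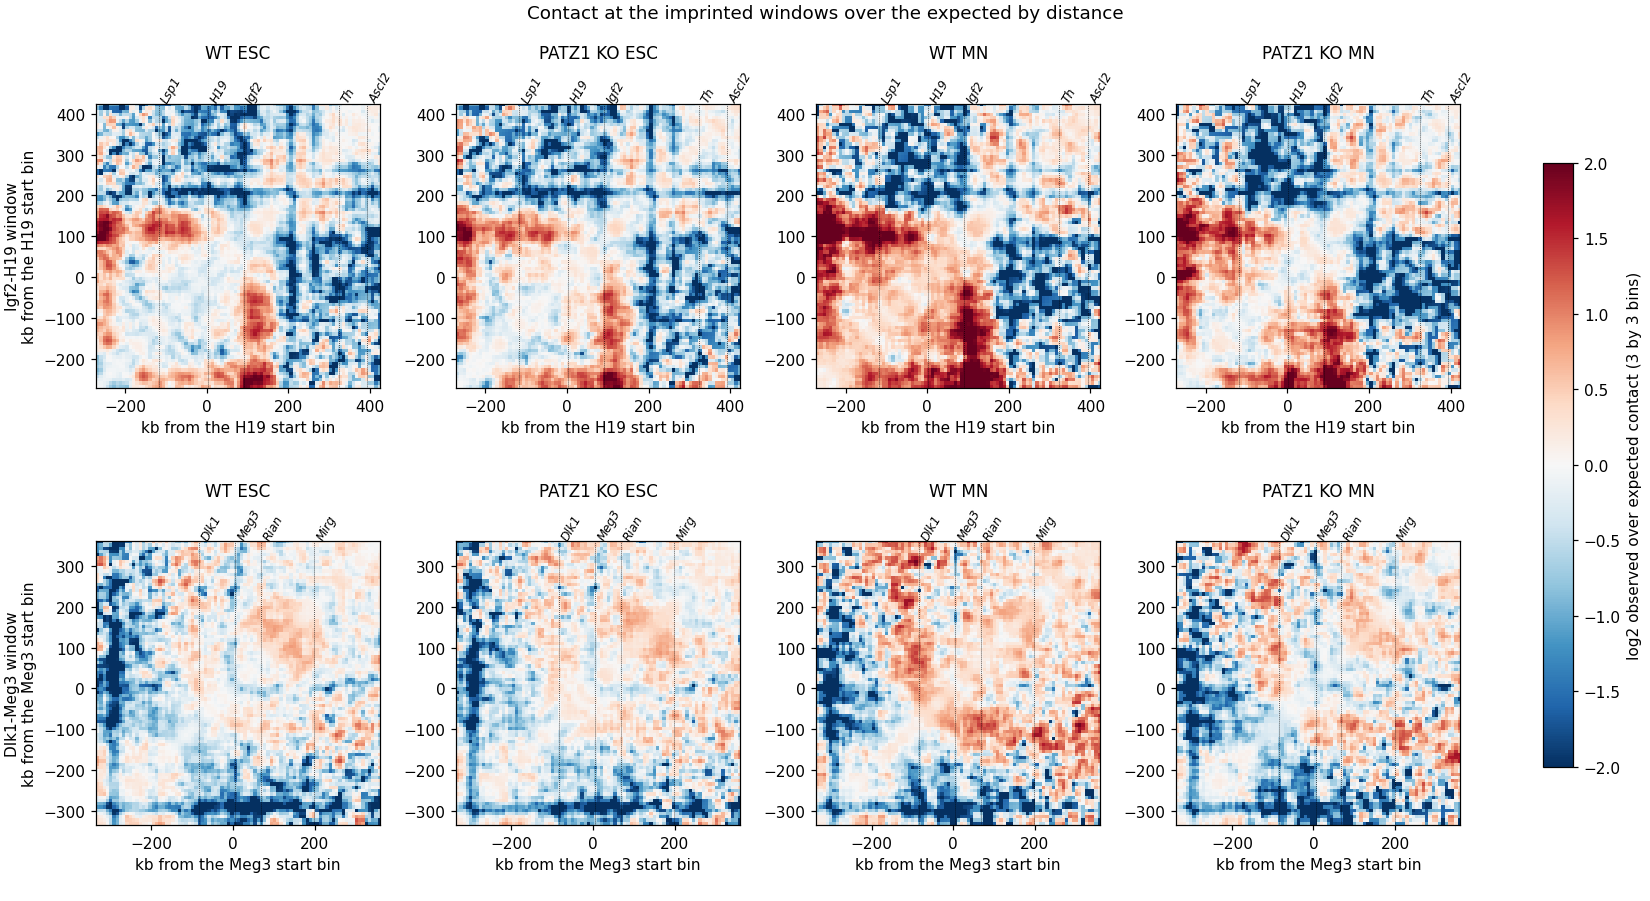
Contact maps of the Igf2-H19 (top) and Dlk1-Meg3 (bottom) windows in the 4 libraries, with both axes in kb from the start bin of H19 or Meg3 and colour as log2 O/E summed over blocks of 3 by 3 bins (red above, blue below the expected by distance; dotted lines mark gene starts). In all 4 libraries Igf2 shares a domain with H19 and the genes centromeric of it. A blue field lies between the bins from H19 to Igf2 and those telomeric of Igf2 (O/E 0.615 to 0.719). The bins centromeric of H19 contacted the same telomeric bins at an O/E of 1.03 to 1.51.

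In all 4 libraries Igf2 and H19 lay in 1 domain that ran from the centromeric edge of the window, past Lsp1 (a leukocyte actin-binding protein), Tnnt3 (a troponin of fast skeletal muscle) and Mrpl23 (a mitochondrial ribosomal protein), and ended beyond Ins2, an insulin gene next to Igf2. The insulation score is the log2 mean contact across a bin in a square of 250 kb over the chromosome mean, and a low score marks a bin that few contacts cross. It had a local minimum in the bin chr7:142720001-142728000 in both cell states, inside the noncoding RNA gene Gm39116 and 57.2 kb from the Igf2 start on the side away from H19. The score there was -0.71, -0.68, -0.76 and -0.87 in library order. The score was thus low in every library, and PATZ1 KO minus WT was 0.023 in ESCs and -0.11 in MNs, inside the 5% to 95% range of all autosomal bins (-0.17 to 0.15 and -0.33 to 0.38). Taken as O/E in the same square and GC-matched, the log2 values were -0.38, -0.35, -0.73 and -0.66, so the MN difference between genotypes turned to 0.061, and MN minus ESC in WT was -0.34 where the score gave -0.054.

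The bin that holds H19, the ICR and the 4 CTCF letter matches was not a minimum of the insulation score. Its score was 0.26, 0.30, 0.94 and 0.50 in library order, so contacts crossed it more often than the chromosome mean in all 4 libraries and most often in WT MNs. PATZ1 KO minus WT was -0.44 in MNs, at percentile 0.602 of autosomal bins. Taken as O/E in the same square and GC-matched, the log2 values were 0.61, 0.66, 0.88 and 0.74, and PATZ1 KO minus WT in MNs was -0.14. The percentile is that of the score without GC matching, and the GC-matched change has no autosomal range beside it. A second minimum was called at chr7:142856001-142864000 in ESCs, between Ins2 and Th, with scores of -0.58 in both ESC libraries against -0.22 and -0.25 in the MN libraries. GC-matched in the same way these were -0.31, -0.30, -0.20 and -0.077, and MN minus ESC in WT fell from 0.37 to 0.11. A minimum called in MNs only lay at the telomeric edge, chr7:142992001-143000000. Th encodes tyrosine hydroxylase, the first step of catecholamine synthesis.

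**Figure D3:**
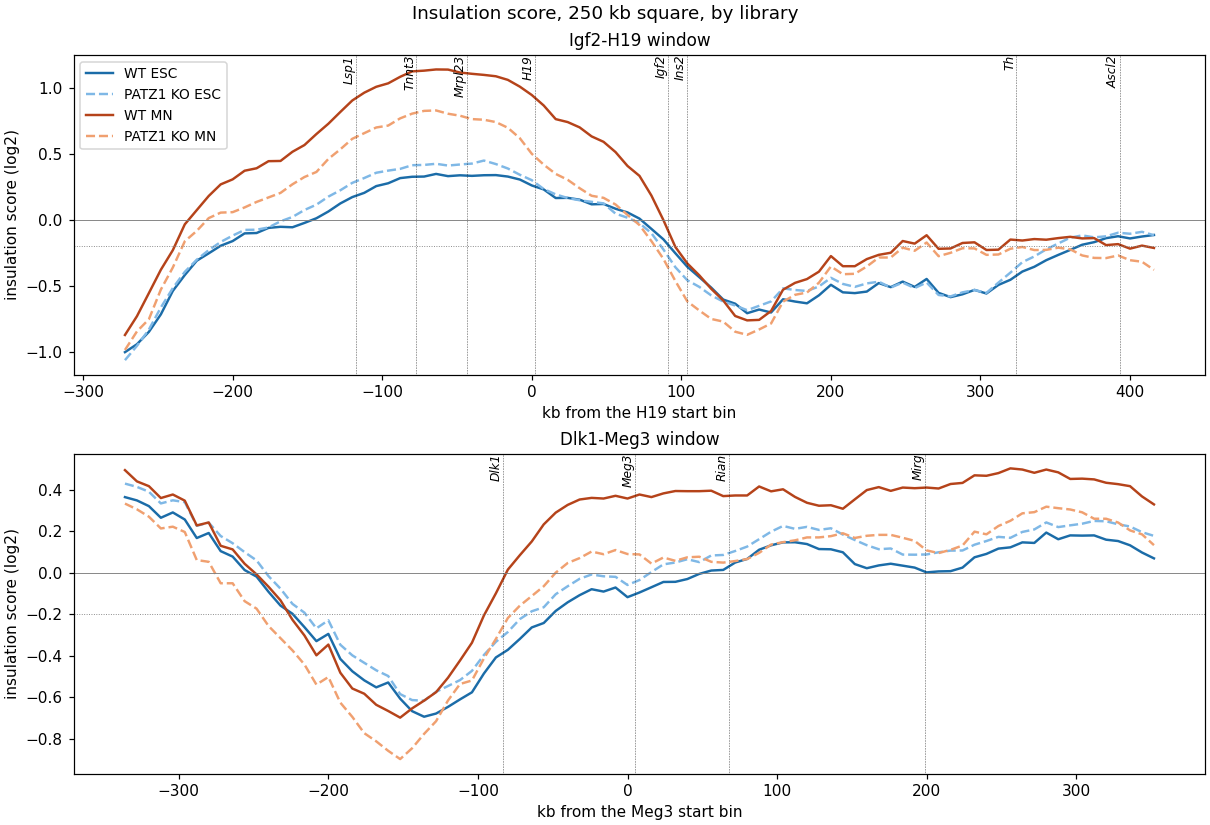
Insulation score (y axis, log2) along the Igf2-H19 (top) and Dlk1-Meg3 (bottom) windows, against distance in kb from the H19 or Meg3 start bin, for WT (solid) and PATZ1 KO (dashed) libraries of ESCs (blue) and MNs (orange). All 4 libraries are low beyond Igf2, at -0.68 to -0.87 in the bin of the minimum, and centromeric of Dlk1, at -0.62 to -0.78 in the bin of the ESC minimum and -0.58 to -0.90 in that of the MN minimum, and the WT MN line is highest around H19 and Meg3. The lowest bin of the Igf2-H19 window is its first, at -0.87 to -1.06.

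Contacts of the Igf2 start bin at 16 to 200 kb pointed towards H19. On the H19 (centromeric) side lay 156, 166, 177 and 105, in library order, and on the telomeric side 79, 79, 69 and 45. The telomeric share was 33.6% (27.6 to 40), 32.2% (26.4 to 38.5), 28.0% (22.5 to 34.1) and 30% (22.8 to 38.0) in that order. All 4 shares lay below the 50% that distance alone gives, and their intervals overlapped one another. The GC-matched expected share was 47.2% to 50.3%.

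For the H19 start bin the side contacted differed between the ESC and the MN libraries, which was not tested. In ESCs the telomeric share, towards Igf2, was 53.9% (47.6 to 60.1) in WT, from 139 of 258 contacts, and 53.1% (46.8 to 59.4) in PATZ1 KO, from 136 of 256. In MNs it was 40% (33.9 to 46.3) in WT, from 102 of 255, and 34.0% (27.3 to 41.3) in PATZ1 KO, from 64 of 188. The intervals of the MN libraries, which cover counting error only, lay below those of the ESC libraries in both genotypes. The O/E on the centromeric side was 0.857, 0.955, 1.68 and 1.48 in library order and on the telomeric side 1.00, 1.08, 1.12 and 0.764, so in WT both sides were higher in MNs and the centromeric side by more. GC-matched, the centromeric side was at 1.04, 1.15, 1.48 and 1.84 and the telomeric side at 1.21, 1.30, 1.02 and 0.948, so that the telomeric side was lower in MNs of both genotypes.

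**Figure D4:**
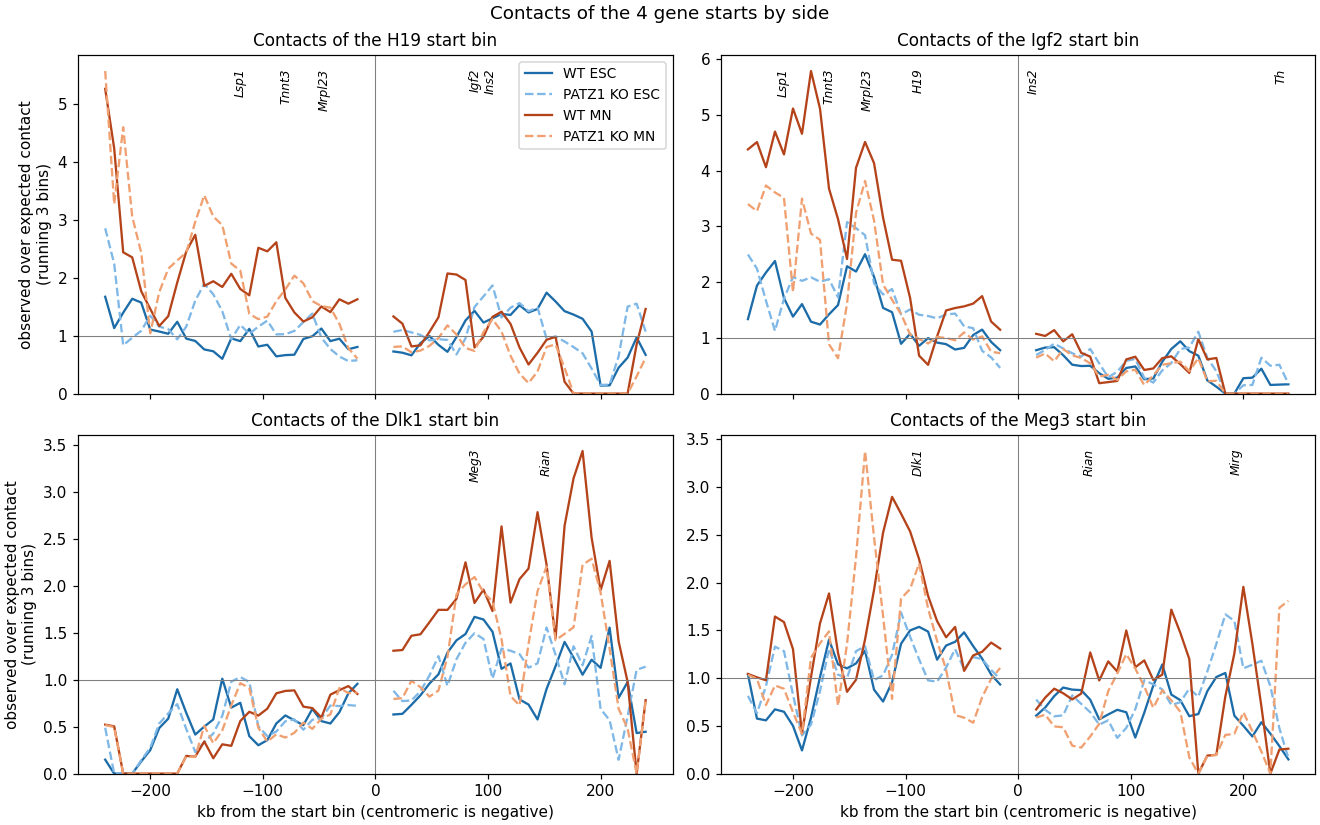
O/E contact (y axis, running 3 bins) of the H19, Igf2, Dlk1 and Meg3 start bins against distance in kb to each side, in the 4 libraries, with the other gene starts named at their place. Pairs that are not in a list count as 0. Summed over 16 to 200 kb, Igf2 was at 1.12 to 1.94 on the H19 side and 0.537 to 0.757 on the other, and Dlk1 at 0.610 to 0.684 centromeric and 0.990 to 1.75 telomeric.

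Single pairs of bins were sparse, with 5, 7, 1 and 1 contacts between the H19 and Igf2 start bins in WT ESCs, PATZ1 KO ESCs, WT MNs and PATZ1 KO MNs, so elements were compared as blocks with 1 bin added on each side. The H19 and Igf2 blocks, 88 kb apart, had 50, 51, 27 and 29 contacts, with an O/E of 1.19, 1.33, 1.01 and 1.18. Igf2 had more contact, for its distance, with the block of the interval 5 to 35 kb downstream of H19 that holds the enhancers known to act on both genes. That block had 128, 124, 133 and 78 contacts, with an O/E of 1.55, 1.64, 2.63 and 1.67. GC-matched, the enhancer block was at 1.81, 1.93, 2.18 and 1.89 and the H19 block at 1.35, 1.52, 0.846 and 1.38. With the added bins the 2 blocks share 2 bins, the H19 start bin among them, so these values are not separate. Without the added bins the interval was at 1.34, 1.63, 2.87 and 1.73 and the H19 bin at 1.08, 1.66, 0.339 and 0.371, and PATZ1 KO ESCs did not keep the order.

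H19 itself contacted the enhancer interval at an O/E of 0.891, 0.970, 1.39 and 0.957 in library order, and GC-matched at 1.15, 1.22, 1.27 and 1.31. PATZ1 KO over WT in MNs was -0.54 (-0.88 to -0.20) by distance and 0.041 (-0.30 to 0.38) GC-matched. Igf2 with the block of the Mrpl23 start, which overlaps the enhancer block, stood at 2.06, 2.80, 4.29 and 2.54, and Igf2 with the Lsp1 start, 208 kb away, at 1.67, 1.91, 4.54 and 2.69. In the other direction the Igf2 block had 2, 4, 4 and 3 contacts with the Th block, 232 kb away, an O/E of 0.107, 0.230, 0.375 and 0.298. Igf2 was thus far below the expected contact with Th and above it with Lsp1 at a like distance in every library.

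PATZ1 KO over WT for Igf2 with the enhancer interval was 0.084 (-0.28 to 0.45) on the log2 scale in ESCs and -0.66 (-1.08 to -0.24) in MNs, and GC-matched 0.092 and -0.21 (-0.63 to 0.21). The lowest of the Igf2 blocks in MNs was Igf2 with Tnnt3, with 52 contacts in WT against 15 in PATZ1 KO, a log2 ratio of -1.68 (-2.62 to -0.83), and -1.26 (-2.19 to -0.41) GC-matched. In ESCs the same block had 44 and 52 contacts and a log2 ratio of 0.36 (-0.25 to 0.97). These blocks hold few contacts, and Igf2 with Tnnt3 is singled out after its value was seen.

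High contact also lay at a corner, between the first 5 bins of the window (chr7:142304001-142344000, over the end of Krtap5-4 and part of Ifitm10) and the bins from the Igf2 start to the boundary (chr7:142664001-142728000). It was picked from the map. The 40 bin pairs had 167, 162, 233 and 133 contacts in library order, with an O/E of 3.59, 3.65, 8.32 and 4.99. The first 5 bins contacted an equal stretch beyond the boundary less, at 1.13, 1.24, 2.60 and 1.89. GC-matched, that stretch was at 1.41, 1.54, 2.61 and 2.09, so it too was above both expected values. GC-matched, the corner stood at 4.67, 4.73, 8.36 and 5.66, so WT MNs were the highest with both expected values. The log2 genotype ratio in MNs was -0.74 (-1.06 to -0.42) and GC-matched -0.56 (-0.88 to -0.25), and in ESCs 0.024 (-0.30 to 0.34). For the stretch beyond the boundary the MN ratio was -0.46 (-1.07 to 0.14) and GC-matched -0.32 (-0.93 to 0.28). With the bins from H19 to the bin before Igf2, the same 5 bins had an O/E of 1.85, 2.23, 3.38 and 3.37. The MN ratio there was -0.0043 (-0.32 to 0.32) and GC-matched 0.25 (-0.073 to 0.57).

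Dividing the window at the genes, also done after the data were seen, gave 6 parts, of which the contact of 34 bins centromeric of H19 with the 12 bins from H19 to Igf2 had the highest MN over ESC ratio in WT. It had 1493, 1562, 1671 and 1186 contacts and an O/E of 1.13, 1.28, 2.04 and 1.56. MN over ESC was 0.86 (0.75 to 0.96) in WT and 0.28 (0.17 to 0.39) in PATZ1 KO cells, and GC-matched 0.38 (0.28 to 0.49) and 0.22 (0.11 to 0.33), at percentiles 95 and 80 of the same blocks in 3333 windows. Contact of the H19 to Igf2 bins with the 41 bins telomeric of Igf2 went the other way GC-matched, at -0.24 (-0.38 to -0.091) in WT and -0.27 (-0.43 to -0.11) in PATZ1 KO cells, though at percentiles of only 20.1 and 18.0. Without GC matching it was 0.090 in WT and -0.18 in PATZ1 KO cells.

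PATZ1 KO over WT in MNs was below 0 in every one of the 6 parts of the Igf2-H19 window, from -0.14 within the telomeric part to -0.53 within H19 to Igf2. GC-matched, 4 of the 6 were above 0, between 0.026 and 0.11. The part that kept its sign with an interval clear of 0 was contact of the bins centromeric of H19 with the 41 bins telomeric of Igf2, of which only 6 lie before the bin of the insulation minimum. It had 1537 contacts in WT against 1108 in PATZ1 KO. Its O/E was 1.09, 1.03, 1.51 and 1.15 in library order, above the expected in all. Its ratio was -0.39 (-0.51 to -0.28), and -0.21 (-0.32 to -0.097) GC-matched, at percentile 0.240 of 3332 windows. Its pairs up to 200 kb apart gave -0.59 (-0.86 to -0.33) by distance, from 306 contacts in WT and 188 in PATZ1 KO. Most of these closer pairs lie on the 6 bins before the minimum. The part also holds the corner pairs above, except those of the Igf2 start bin, so the corner and this part are not separate. In ESCs that part gave -0.083 (-0.18 to 0.014). The highest ESC ratio was that of the bins centromeric of H19 with H19 to Igf2, at 0.19 (0.088 to 0.29) and the same GC-matched, at percentile 97.8.

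**Figure D5:**
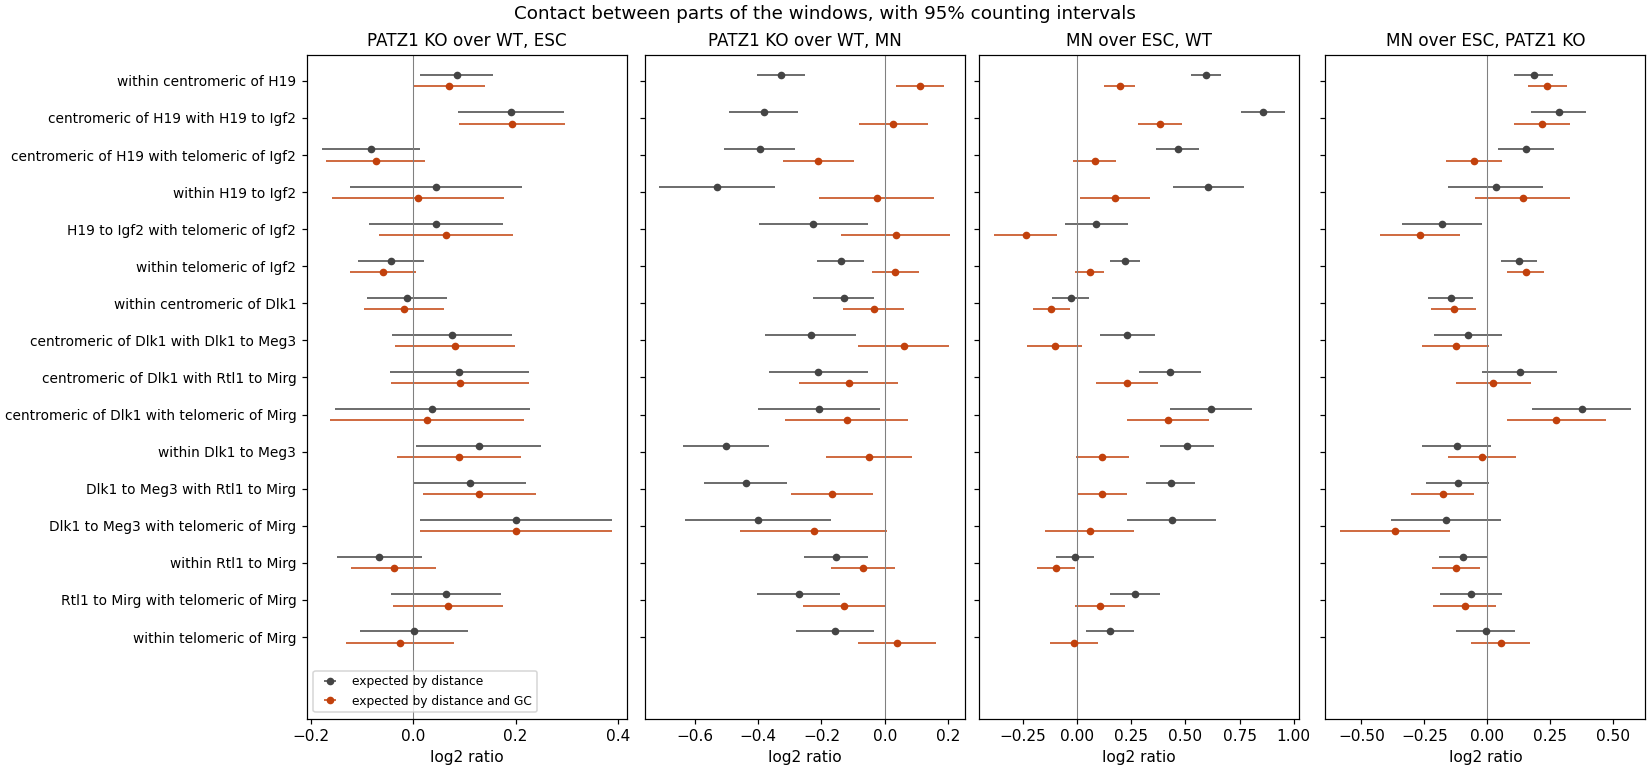
Log2 ratios (x axis) of contact between the parts of the 2 windows named on the y axis, for PATZ1 KO over WT in ESCs and MNs and for MN over ESC in WT and PATZ1 KO cells, with expected by distance (grey) and by distance and GC content (orange) and bars as 95% counting intervals. In MNs every grey PATZ1 KO over WT point is below 0, while 6 of the 16 orange ones lie above 0.

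At the Dlk1-Meg3 window the lowest insulation scores lay centromeric of Dlk1, in a stretch with no RefSeq gene, at chr12:109400001-109408000 in ESCs and chr12:109384001-109392000 in MNs, 48.5 and 64.5 kb from the Dlk1 start. The ESC bin scored -0.69 in WT and -0.62 in PATZ1 KO ESCs, and the MN bin -0.70 and -0.90 in the MNs of the same genotypes. GC-matched, the ESC bin was at -0.41 and -0.31 and the MN bin at -0.64 and -0.66, so PATZ1 KO minus WT in MNs went from -0.20 to -0.025. No further local minimum under -0.2 lay between Dlk1 and Meg3. The Meg3 start bin scored -0.12, -0.058, 0.36 and 0.091 in WT ESCs, PATZ1 KO ESCs, WT MNs and PATZ1 KO MNs, and the Dlk1 start bin -0.41, -0.33, -0.099 and -0.32. WT MNs were the highest at both genes, as at H19. GC-matched they were still the highest at Meg3, at 0.15, 0.21, 0.31 and 0.27 in library order, but not at Dlk1, at -0.16, -0.084, -0.12 and -0.13. PATZ1 KO minus WT in MNs was below 0 in all 87 bins of each window, whose squares overlap, with medians of -0.17 at Igf2-H19 and -0.20 at Dlk1-Meg3. Over all autosomal bins the median was -0.0017, with a 5% to 95% range of -0.33 to 0.38. GC-matched, PATZ1 KO minus WT in MNs was below 0 in 23 bins (median 0.061) and in 75 bins (median -0.061). The share of autosomal bins below 0 was not computed for either count.

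Dlk1 contacted mostly the Meg3 side. Its telomeric share at 16 to 200 kb was 59.8% (53.4 to 65.9) in WT ESCs, 62.4% (55.7 to 68.7) in PATZ1 KO ESCs, 71.9% (65.7 to 77.6) in WT MNs and 66.7% (59.3 to 73.5) in PATZ1 KO MNs, above the GC-matched expected share of 50.9% to 51.1% in all 4. Meg3 contacted mostly the Dlk1 side, with telomeric shares of 39.2% (33.5 to 45.2), 41.1% (34.9 to 47.5), 38.2% (31.9 to 44.8) and 32.9% (26 to 40.5). The 4 intervals overlapped one another at Meg3, and at Dlk1 those of WT ESCs and WT MNs shared only their ends.

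The Dlk1 and Meg3 blocks, 88 kb apart, had 59, 48, 45 and 47 contacts in WT ESCs, PATZ1 KO ESCs, WT MNs and PATZ1 KO MNs, an O/E of 1.31, 1.19, 1.59 and 1.63. Dlk1 with the IG-DMR had 91, 72, 86 and 75 contacts, an O/E of 1.34, 1.19, 1.98 and 1.69. Farther on, the starts of both Rian, host of many small nucleolar RNAs, and Rtl1, a retrotransposon-derived gene needed in the placenta, lie in 1 bin. The block of that bin and its neighbours had 36, 32, 39 and 38 contacts with the Dlk1 block, an O/E of 1.20, 1.18, 2.23 and 2.15, and the bin itself had 3, 4, 3 and 3 with the Dlk1 start bin. Both MN libraries were above both ESC libraries for these 3 pairs, though GC-matched Dlk1 with Meg3 stood at 1.47, 1.34, 1.33 and 1.90. The Meg3 and IG-DMR blocks overlap, so these pairs are not separate. MN over ESC for Dlk1 with Meg3 was 0.29 (-0.31 to 0.87) in WT and 0.46 (-0.16 to 1.07) in PATZ1 KO cells. Dlk1 with the Mirg block, 280 kb away, did not follow them, with 25, 18, 12 and 16 contacts and an O/E of 1.46, 1.15, 1.21 and 1.59. For Dlk1 with Rian, MN over ESC was 0.89 (0.20 to 1.59) in WT and 0.86 (0.14 to 1.59) in PATZ1 KO cells, and GC-matched 0.42 (-0.27 to 1.12) and 0.76 (0.038 to 1.48).

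Meg3 showed the lowest PATZ1 KO over WT ratio in MNs with the Rian and Rtl1 block, with 52 contacts in WT against 24 in PATZ1 KO, -1.15 (-1.91 to -0.42) on the log2 scale, and -0.72 (-1.48 to 0.0087) GC-matched. The IG-DMR with that block had 43, 50, 70 and 33 contacts, and its PATZ1 KO over WT ratio in MNs was -1.11 (-1.76 to -0.50), and -0.70 (-1.34 to -0.084) GC-matched. In ESCs the 2 ratios were -0.18 (-0.80 to 0.43) and 0.39 (-0.23 to 1.01). Both are named after their values were seen, and the Meg3 and IG-DMR blocks share 2 bins.

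Over larger parts, contact within the 16 bins from Dlk1 to the end of Meg3 had 1125, 1077, 1054 and 761 contacts and an O/E of 0.957, 1.05, 1.36 and 0.961. The genotype ratio there was 0.13 (0.0055 to 0.25) for ESCs and -0.50 (-0.64 to -0.37) for MNs, and GC-matched 0.089 (-0.033 to 0.21) and -0.051 (-0.19 to 0.085). The GC content of these 16 bins was 49.2%, against 43.6% to 44.1% in the other 3 parts. Contact of Dlk1 to Meg3 with the 22 bins from Rtl1 to Mirg, a further maternal noncoding RNA that hosts microRNAs, gave -0.44 (-0.57 to -0.31) in MNs and -0.17 (-0.30 to -0.037) GC-matched, at percentile 2.58 of 3331 windows. In ESCs it was 0.11 (0.00042 to 0.22) and GC-matched 0.13 (0.019 to 0.24), at percentile 91.4. Contact of Dlk1 to Meg3 with the 18 bins telomeric of Mirg gave, for MNs and ESCs, -0.40 (-0.63 to -0.17) and 0.20 (0.013 to 0.39), and GC-matched -0.22 (-0.46 to 0.0062) and 0.20 (0.012 to 0.39), at percentiles 1.73 and 97.1. Signs that were opposite in the 2 cell states, and the same with either expected value, were seen in 6 of the 10 parts of this window and in 1 of the 6 at Igf2-H19. The parts share bins, and the share of such parts in other windows was not computed, so these counts have no background. The difference between the cell states was not tested.

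Within Rtl1 to Mirg there were 2598, 2180, 1689 and 1551 contacts and an O/E of 1.32, 1.26, 1.31 and 1.18. All 4 libraries thus stood above the expected contact, and MN over ESC there was -0.0080 (-0.097 to 0.081) in WT and -0.095 (-0.19 to -0.00069) in PATZ1 KO cells. GC-matched, it was -0.096 (-0.19 to -0.0069) in WT and -0.13 (-0.22 to -0.031) in PATZ1 KO cells. Contact between this part and Dlk1 to Meg3 was lower in ESCs, at 0.968 and 1.05, than in WT MNs at 1.31, and PATZ1 KO MNs were at 0.963. GC-matched, the values were 1.12, 1.22, 1.21 and 1.08 in library order, so that order did not hold.

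By distance, PATZ1 KO over WT in ESCs lay between -0.0064 and 0.12 at both windows. At Igf2-H19 the O/E of pairs 104 to 200 kb apart was 0.988, 1.05, 1.44 and 1.19 in library order, while pairs at 0 to 8 kb gave 1.01, 1.05, 1.14 and 1.01. At Dlk1-Meg3 the same classes gave 0.932, 0.976, 1.12 and 0.933 at 104 to 200 kb and 1.01, 1.07, 1.09 and 0.968 at 0 to 8 kb. The log2 genotype ratio in MNs was below 0 in each of the 5 distance classes of both windows, from -0.17 to -0.33. GC-matched, it was above 0 in 3 of the 5 classes at Igf2-H19, from -0.063 to 0.057, and below 0 in all 5 at Dlk1-Meg3, from -0.029 to -0.091, while in ESCs the ratios lay between -0.055 and 0.12 over both windows.

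The promoter contact level sums the contacts of the bin of a gene's start at 16 to 200 kb over their expected. It was 0.847, 0.975, 1.35 and 0.895 for Igf2, 0.930, 1.02, 1.40 and 1.12 for H19, 0.829, 0.843, 1.22 and 0.915 for Dlk1, and 0.934, 0.925, 1.21 and 0.880 for Meg3, in the order WT ESCs, PATZ1 KO ESCs, WT MNs, PATZ1 KO MNs. WT MNs were the highest for all 4 genes, but GC-matched PATZ1 KO MNs were the highest for H19 (1.39 against 1.25 in WT MNs) and Dlk1 (1.12 against 1.11). The genotype ratio in MNs was -0.59 (-0.89 to -0.29) for Igf2, -0.32 (-0.60 to -0.040) for H19, -0.41 (-0.70 to -0.13) for Dlk1 and -0.46 (-0.75 to -0.17) for Meg3. The median of 31607 autosomal genes was -0.19 and 73.8% of them were below 0, and the members lay at percentiles 4.63, 30.7, 18.5 and 13.7. GC-matched, the 4 values were -0.19, 0.16, 0.016 and -0.077, each with an interval that includes 0. In ESCs the 4 ratios were 0.20, 0.13, 0.025 and -0.014, and their intervals included 0 as well.

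Of 37 other imprinted genes listed for comparison, 35 had a promoter contact level. In MNs 26 of the 35 (74.3%) had less contact in PATZ1 KO than in WT, with a median log2 ratio of -0.19, which is close to the share and the median of all genes. In ESCs 17 of 35 (48.6%) were below 0 against 57.8% of all genes. MN over ESC in WT had a median of 0.24 in the list and 0.15 in all genes, and in PATZ1 KO cells of -0.026 and -0.0018. The levels most like those of the members over the 4 libraries were those of Slc38a4 and Blcap for Igf2 (root mean square differences in log2 of 0.0998 and 0.143), of Peg3 and Usp29, which share a start bin, for H19 (0.130), of Inpp5f and Copg2 for Dlk1 (0.116 and 0.117) and of Blcap and Nnat, which share a start bin, for Meg3 (0.0569).

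Among pairs of bins with a mean of at least 10 contacts, the Igf2-H19 window had 400 in ESCs, of which 9 were at least 2-fold higher and 13 at least 2-fold lower in PATZ1 KO. That is 2.25% and 3.25%, against 2.71% higher and 2.99% lower over the autosomes. The Dlk1-Meg3 window had 6 higher and 9 lower of 458. In MNs the Igf2-H19 window had 2 higher and 34 lower of 330, or 0.606% and 10.3%, and the Dlk1-Meg3 window 2 higher and 22 lower of 346, or 0.578% and 6.36%, against an autosomal 3.77% higher and 3.74% lower. GC-matched, the MN counts were 6 higher and 9 lower at Igf2-H19 and 3 higher and 9 lower at Dlk1-Meg3, or 2.73% and 2.60% lower against 2.38% over the autosomes and 1.82% and 0.867% higher against 2.41%. In ESCs they were 8 higher and 13 lower, and 6 higher and 9 lower, against 2.6% higher and 2.93% lower. The lower pairs in MNs were thus in excess of the background by distance and near it once GC content was matched.

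Between the cell states, 3 of 354 pairs at Igf2-H19 were at least 2-fold higher in MNs in both genotypes and 0 were lower, against an autosomal 0.272% higher and 0.327% lower. At Dlk1-Meg3 0 of 387 pairs passed in either direction. No pair of bins at least 40 kb apart reached a mean of 20 contacts in either window or cell state, so no single pair could be described as a loop at this depth.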

How the data were processed

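Micro-C libraries (Dovetail kit) were aligned and binned for the authors, with mm10 as the build per the labels (tool versions not given in the sources used here). The authors deposited 2 lists, 1 per cell state, of pairs of 8 kb bins with raw contact counts and a jointly loess-normalized signal (HiCcompare). Only pairs with a contact in both libraries are listed, ESCs and MNs separately. Pairs that are not listed counted as 0 in the observed and the expected, and what this does to sparse long-range values was not tested. The authors' differences, p-values and scores of their own comparison, also in the lists, were not used. Counts were summed per library and divided by the mean of all pairs of the same distance on the chromosome, in Python 3.11.15 with NumPy 2.4.6, SciPy 1.17.1, pandas 2.3.3 and Matplotlib 3.10.9. GC matching used 20 GC classes and 5 distance classes. A block ratio with and without GC matching, a boundary bin and a share were tested on simulated data. The simulation kept pairs without a contact in both libraries, unlike the lists, and the other steps were not tested. Members and lists were chosen with earlier results of these data known. In full are named the 4 member genes, with fixed elements, and 37 imprinted genes were counted. Boundaries are the called local minima under -0.2, and not every bin below both next bins was called. The top pairs at least 40 kb apart with a mean of 20 contacts were to be named.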

Additional observations from a re-analysis of the deposited data

Results flagged for a closer look

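PATZ1 KO over WT contact had opposite signs in ESCs and MNs at both windows, with MN minus ESC differences of the log2 ratios of -0.27 at Igf2-H19 and -0.25 at Dlk1-Meg3. Each rests on 1 library per group, and the difference was not tested. GC-matched, the ratios were -0.031 in ESCs and 0.031 in MNs at Igf2-H19, which is the other way round, and 0.016 and -0.046 at Dlk1-Meg3.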

How the results depend on the processing

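Window ratios are given in the order PATZ1 KO over WT in ESCs and in MNs, then MN over ESC in WT and in PATZ1 KO cells. With expected values from 10 Mb either side they were -0.00063, -0.035, 0.15 and 0.11 at Igf2-H19 and -0.024, -0.0027, 0.016 and 0.037 at Dlk1-Meg3. Scaled to sequenced reads they were -0.82, 1.26, -1.45 and 0.63, and -0.86, 1.40, -1.64 and 0.62, and this scaling takes no account of how many reads became listed contacts. Scaled to the list total, those that moved were -0.32 for PATZ1 KO over WT in MNs and -0.10 for MN over ESC in PATZ1 KO cells at Igf2-H19, and 0.020 for PATZ1 KO over WT in ESCs and 0.090 for MN over ESC in WT at Dlk1-Meg3. Without pairs within 1 bin they were -0.29, 0.46 and 0.14 (the last 3 of the order) at Igf2-H19 and 0.033, -0.24, 0.22 and -0.058 at Dlk1-Meg3. A linear fit on GC content, chosen after seeing the data, gave -0.048, 0.089, -0.0058 and 0.13, and 0.0080, -0.038, -0.00057 and -0.046. GC matching, also chosen after seeing the data, gave -0.031, 0.031, 0.044 and 0.11, and 0.016, -0.046, 0.00031 and -0.062. With 100 kb added on each side all 8 window ratios stayed within their intervals.

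GC matching turned 12 of 64 ratios of larger parts, 9 of them with an interval clear of 0 by distance. Of these 9, PATZ1 KO over WT in MNs became 0.11 within the bins centromeric of H19, 0.026 for these with H19 to Igf2, 0.034 for H19 to Igf2 with the telomeric bins, 0.033 within the latter, 0.059 for the bins centromeric of Dlk1 with Dlk1 to Meg3 and 0.039 within those telomeric of Mirg. MN over ESC became -0.055 in PATZ1 KO cells for the bins centromeric of H19 with those telomeric of Igf2, and in WT -0.10 for the bins centromeric of Dlk1 with Dlk1 to Meg3 and -0.013 within those telomeric of Mirg. The other 3 were MN over ESC in WT of H19 to Igf2 with the telomeric bins, which became -0.24, and within the bins telomeric of Mirg PATZ1 KO over WT in ESCs, -0.027, and MN over ESC in PATZ1 KO cells, 0.052. It also turned PATZ1 KO over WT in MNs of the promoter level to 0.16 for H19 and 0.016 for Dlk1, and gave insulation changes in MNs of 0.061 at the minimum beyond Igf2 and of 0.082 at the MN minimum on the telomeric edge of the Igf2-H19 window. Divided by the coverage of both bins, MN over ESC in WT became -0.29 for H19 and -0.19 for Igf2 with the enhancer interval, and with 1 bin added H19 with that interval was -0.019 in PATZ1 KO cells. Besides the 2 ratios that the division by coverage turned, 4 left their counting intervals and 73 stayed within them. The planned division of promoter levels by the coverage of the start bin gave no value, because that coverage is the same sum of contacts.

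Counts of pairs past the fold, as higher and lower in PATZ1 KO, moved with each threshold, and so did the autosomal shares. At a minimum mean of 5 contacts they were 77 and 81 of 1030 at Igf2-H19 and 65 and 74 of 1022 at Dlk1-Meg3 in ESCs (autosomes 7.91% and 9.62%), and 36 and 145 of 808, and 28 and 108 of 723, in MNs (9.23% and 9.62%). At a minimum mean of 20 they were 0 and 1 of 211, and 1 and 1 of 252, in ESCs (0.409% and 0.482%), and 1 and 6 of 189, and 0 and 7 of 200, in MNs (1.28% and 1.03%). At 1.5-fold they were 34 and 40 of 400, and 37 and 40 of 458, in ESCs (9.88% and 10.1%), and 13 and 76 of 330, and 19 and 81 of 346, in MNs (12.4% and 12.5%). Scaled to the list total they were 5 and 15 of 400, and 5 and 17 of 458, in ESCs (1.96% and 3.65%). In MNs they were 1 and 43 of 330, and 2 and 25 of 346 (3.08% and 4.70%). GC matching gave 6 higher and 9 lower at Igf2-H19 and 9 lower at Dlk1-Meg3 in MNs (2.41% and 2.38%). The causes of these changes were not tested. No paired analysis was made, as each group has 1 library.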
